A study of Mus musculus with 24 samples.

Results

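HiFi-RfxCas13d and DiCas7-11 are RNA-targeting CRISPR effector proteins, and RNA-seq of Neuro2A cells, a wild-type mouse neuroblastoma line, was used here to ask which transcripts differed between cells that carried one or the other. HiFi-RfxCas13d is the N2V7 variant of RfxCas13d from Ruminococcus flavefaciens, and DiCas7-11 is a type III-E effector from Desulfonema ishimotonii. The comparison took all 12 samples with these effectors of the 24 in the series, 6 for each effector. In each set of 6, 3 samples were labelled as given a crRNA against the mouse ataxin-2 transcript (mATXN2) and 3 as given a non-targeted (NTG) crRNA, and the arm was kept as a block. All 12 were collected 48 hr after transient transfection of plasmids in which a CAG promoter drives the effector and a U6 promoter the crRNA. The columns of the deposited table call the arms EV and G12 where the labels call them NTG and G10, which leaves a doubt about the crRNA or empty plasmid given to the control samples. They are named NTG after their labels. The effector, its plasmid, its crRNA scaffold and its own transfections cannot be told apart in this design, and the share of cells transfected was not measured in these data. The 3 untransfected samples served as a reference level and otherwise entered only an alternative fit of all 24 samples.

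Cas13d enzymes cut RNA with HEPN nuclease domains, and once bound to a target they can also cut bystander RNA. High-fidelity variants carry substitutions meant to weaken this collateral activity. Cas7-11 is a fusion of Cas7-like domains with a Cas11-like domain that cuts its target at defined positions. Plasmid DNA and foreign RNA in the cytoplasm can be read by nucleic acid sensors, of which RIG-I (Ddx58) reads RNA. Their signal leads to interferon and then, through a factor that holds IRF9, to interferon-stimulated genes. Amino acid shortage, double-stranded RNA and misfolded protein feed into the integrated stress response, in which the transcription factor ATF4 raises genes for amino acid synthesis, transport and tRNA charging.

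The deposited values were expected counts per gene. They summed to between 13607843 and 19857305 per sample, and 13464 of the 39253 listed genes passed a minimum of 0.5 CPM (reads per gene scaled to library size, here with TMM factors) in at least 3 samples. Of 19 sympathetic neuroblast markers 16 passed, with summed levels of 2625 to 2725 CPM with HiFi-RfxCas13d and 2648 to 2714 CPM with DiCas7-11, although the catecholamine enzymes Th and Dbh were at 1.07 and 3.25 CPM at most on average. The summed fibroblast and endothelial markers stayed at or under 8.83 CPM, no macrophage or astrocyte marker passed, and none of these was called. The called neuroblast markers were Hand2, lower with HiFi-RfxCas13d, and Tubb3, higher. Principal component 1, with 12.6% of the variance, separated all 6 HiFi-RfxCas13d samples (6.26 to 15.1) from all 6 DiCas7-11 samples (-16.1 to -3.10). The 3 NTG samples of DiCas7-11 spread most, with pairwise differences per gene of 3.33 to 5.58 times counting noise against 1.71 to 2.22 in the other 3 groups, and on component 2 DiCas7-11 NTG 2 (21.9) and HiFi-RfxCas13d NTG 3 (15) stood above the other 10 samples (-11.2 to 3.50).

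The targeted gene itself did not separate the effectors. Atxn2 measured 123, 112 and 122 CPM in the NTG samples of HiFi-RfxCas13d and 98.6, 102 and 103 CPM in its mATXN2 samples. With DiCas7-11 it measured 115, 120 and 119 CPM in the NTG samples and 101, 106 and 102 CPM in the mATXN2 samples. The mATXN2 samples lay below the NTG samples of the same effector in both cases, and the untransfected samples were at 121 to 125 CPM. The log2 difference between effectors was -0.0056 ± 0.027 (SE, 6 against 6), with an exact two-sided permutation p of 0.885 within arms.

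Across all genes tested, edgeR's quasi-likelihood test with Benjamini-Hochberg adjustment called 438 genes higher with HiFi-RfxCas13d (3.25% of those tested) and 301 lower (2.24%), 739 in all (5.49%). The differences were small. The median absolute log2 difference of the called genes was 0.14, against 0.058 for all genes tested. Only 15 genes rose and 20 fell by over 0.5, and the 13 beyond 1 all had a mean under 50 counts. The 6 and 6 samples did not overlap for 191 of the genes called higher and 122 of those called lower, while 2.8% of all genes tested showed no such overlap. Without DiCas7-11 NTG 2, the counts were 540 higher and 381 lower. They dropped to 293 and 158 without HiFi-RfxCas13d mATXN2 3, to 304 and 184 without DiCas7-11 mATXN2 2, and to 309 and 169 without DiCas7-11 mATXN2 3. In all 12 fits that left out 1 sample, 232 of the higher and 117 of the lower genes were called.

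The 2 arms share no sample. In the NTG arm 39 genes were called higher with HiFi-RfxCas13d (0.29%) and 6 lower (0.0446%), and in the mATXN2 arm 249 higher (1.85%) and 138 lower (1.02%). Of the 45 genes called in the NTG arm, 44 had the same direction in the mATXN2 arm and 39 were also called there. Of the 387 called in the mATXN2 arm, 363 (93.8%) had the same direction in the NTG arm. Over all genes tested this share was 60.4%. Fitted on its own 6 samples, the NTG arm gave 15 genes higher and 1 lower, and the mATXN2 arm 473 and 281. From the NTG samples alone, 1 member of 26 gene lists was called, in the list of ataxin-2 and its partners. The list of replication-dependent histones is not among these 26. The count in the NTG arm was 20 to 29 without HiFi-RfxCas13d NTG 1, 2 or 3 or DiCas7-11 NTG 3, and 165 without DiCas7-11 NTG 1. That in the mATXN2 arm was 139 to 205 without any 1 of its own 6 samples and 609 without DiCas7-11 NTG 1.

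**Figure D1:**
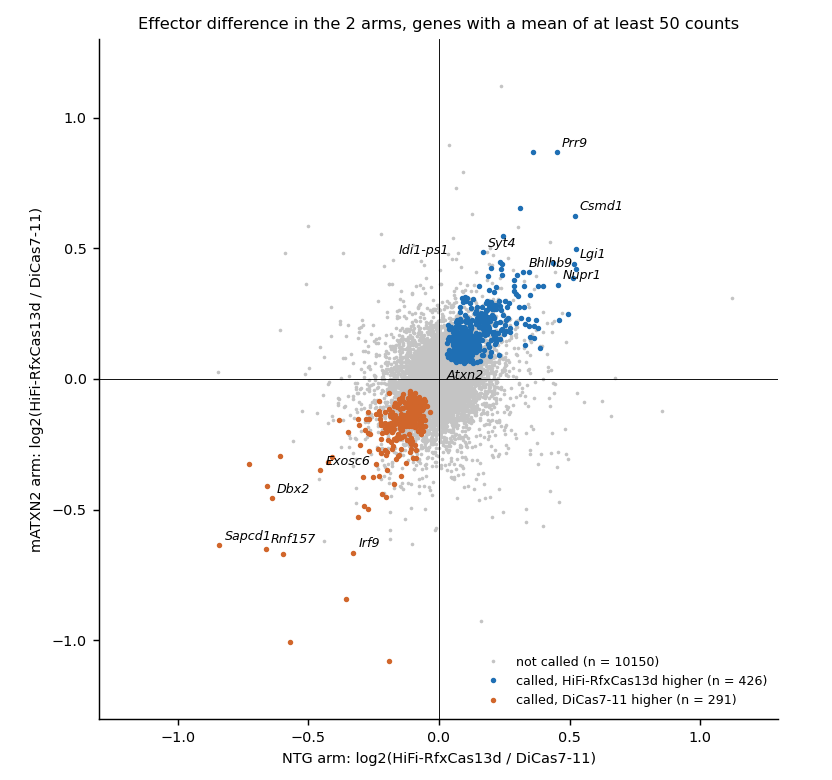
Log2 difference between HiFi-RfxCas13d and DiCas7-11 in the NTG arm (x axis) and in the mATXN2 arm (y axis), one point per gene with a mean of at least 50 counts. Blue, called higher with HiFi-RfxCas13d; orange, called higher with DiCas7-11; grey, 10150 genes not called; 3 grey points lie beyond the axes, at over 1.3. The called genes sit in the quadrants where both arms go the same way, a position favoured by calling them over both arms together. Idi1-ps1 lies where the arms go opposite ways.

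Where the mean was 50 counts or more and the sets of 6 samples did not overlap, the 10 largest rises with HiFi-RfxCas13d ran from 0.33 to 0.67 on the log2 scale. By size these were Prr9, Csmd1, Lgi1, Apbb1ip, Nupr1, Emc7, Trim66, Bhlhb9, Zfp931 and Atp2a3. Emc7, a subunit of the ER membrane complex that inserts transmembrane proteins, measured 86.5 to 93.2 CPM (median 90.8) with HiFi-RfxCas13d and 68.3 to 71.7 CPM (median 69.5) with DiCas7-11. That is a difference of 0.38 ± 0.027 (SE; adjusted p = 2.82e-08), and both arms were called on their own. Bhlhb9, a neuronal gene of the GASP family, had the lowest adjusted p (1.11e-08), with 231 to 238 CPM (median 234) against 170 to 190.2 CPM (median 186). The untransfected samples, at 229 to 235 CPM, lay with HiFi-RfxCas13d.

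Of the larger rises, Csmd1 and Lgi1 encode proteins of neuronal membranes and synapses. Csmd1, a complement-regulating membrane protein of neurons, measured 5.30 to 7.09 CPM (median 5.99) with HiFi-RfxCas13d and 3.21 to 4.65 CPM (median 3.99) with DiCas7-11 (0.57 ± 0.10 on the log2 scale, adjusted p = 0.0019). Lgi1, a secreted synaptic protein mutated in familial epilepsy, measured 8.43 to 11.8 CPM (median 9.48) and 6.20 to 7.95 CPM (median 6.65). Its difference was 0.48 ± 0.091 (adjusted p = 0.0030). Prr9, the largest rise, had 4.52 to 6.36 CPM (median 4.72) against 2.61 to 3.72 CPM (median 3.30), a 1.59-fold difference. Of the 10 rises 9 were called in every fit without 1 sample, and Zfp931, a zinc finger gene, lost its call without HiFi-RfxCas13d mATXN2 3.

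The 10 largest falls ran from -0.73 to -0.28 and were, by size, Sapcd1, Rnf157, Dbx2, Irf9, Exosc6, Cnnm2, Arhgap22, Ubox5, Mmp15 and Lhfpl4. Rnf157, a brain-enriched E3 ubiquitin ligase, was the sharpest. It measured 11.1 to 12.9 CPM (median 12) with HiFi-RfxCas13d and 17.2 to 20.4 CPM (median 18.8) with DiCas7-11, so that the gap between the groups was wider than the spread within either. Its log2 difference was -0.66 ± 0.059 (adjusted p = 6.41e-07), and it was -0.66 in the NTG arm and -0.65 in the mATXN2 arm. Untransfected samples, at 16.8 to 19.3 CPM, lay with DiCas7-11.

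Sapcd1 measured 2.34 to 3.55 CPM (median 2.84) with HiFi-RfxCas13d and 4.03 to 5.47 CPM (median 4.97) with DiCas7-11, a log2 difference of -0.73 ± 0.11 (adjusted p = 4.44e-04). Exosc6, a core subunit of the RNA exosome, measured 8.63 to 12.7 CPM (median 10.1) against 13 to 14.4 CPM (median 13.2; -0.40 ± 0.079, adjusted p = 0.0044). Lhfpl4, which clusters GABA-A receptors at inhibitory synapses, measured 29.8 to 34.0 CPM (median 32.1) against 36.3 to 40.9 CPM (median 39.1; -0.28 ± 0.042, adjusted p = 2.97e-04). All 10 falls were called in every fit without 1 sample. For 8 of the 10 rises and 9 of the 10 falls the mean of the untransfected samples lay between those of the 2 effectors.

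**Figure D2:**
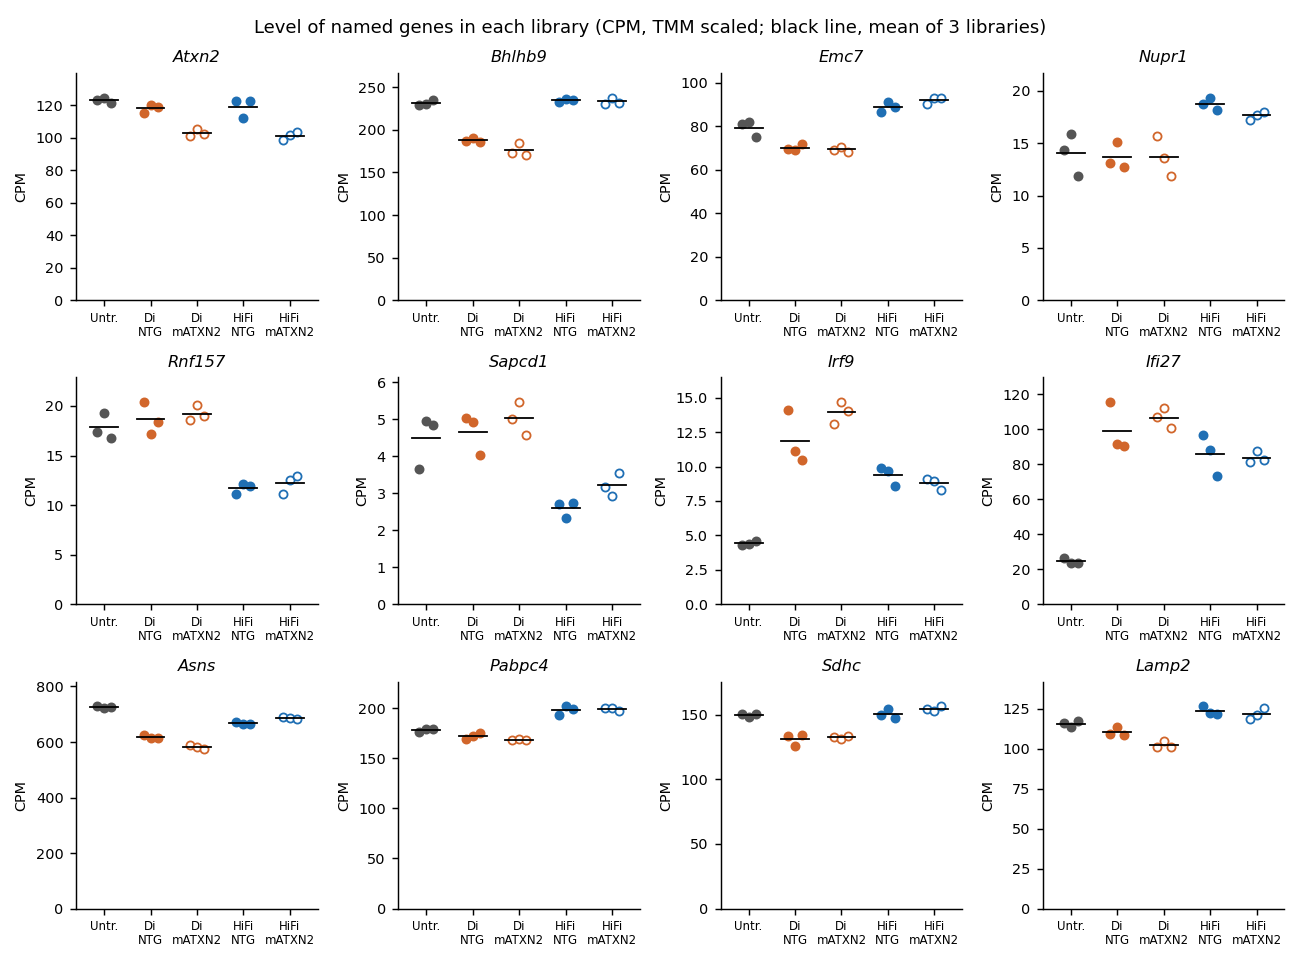
Level in CPM of 12 named genes in each sample, with 3 samples a group. Grey, untransfected cells (Untr.); orange, DiCas7-11 (Di); blue, HiFi-RfxCas13d (HiFi); filled, NTG arm or untransfected; open, mATXN2 arm; black line, mean of 3. Rnf157 and Sapcd1 sit lower in both HiFi-RfxCas13d groups, Bhlhb9 and Emc7 higher, and Irf9 and Ifi27 are lowest in untransfected cells and highest with DiCas7-11.

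Of 42 genes listed for interferon and nucleic acid sensing 37 were tested, and with HiFi-RfxCas13d 8 of them fell, none rose and 29 were not called. Over all genes tested 2.24% were called lower. Of the 37 differences 27 were negative and 10 positive. The median log2 difference of the list was -0.13, against -6.57e-04 for all genes tested. The 8 were Irf9, Ifi27, Bst2, Ddx58, Ifi35, Usp18, Irf7 and Oas1a. Of these, 3 have a match on either strand to GAAA, any 2 bases and GAAA, the core of the interferon-stimulated response element, close to a RefSeq start (250 bases before to 50 after; GRCm38.p6). These windows are printed on the strand of the gene, with the match in capitals, because they mark the class of promoter the list stands for.
Oas1a (chr5:120907526-120907555, minus strand): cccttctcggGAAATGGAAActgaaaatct
Bst2 (chr8:71537577-71537606, minus strand): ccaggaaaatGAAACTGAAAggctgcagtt
Ddx58 (chr4:40239804-40239833, minus strand): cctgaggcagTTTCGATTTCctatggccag
In Oas1a and Bst2 the repeat continues into a further, overlapping match. The same letters were found in 3.44% of all 32851 promoter windows, in promoters of 11 of the 28 listed genes that were tested and had one, and in 3 of the 6 called ones. Over all called genes they were found in 11 of 243 among those called lower (4.53%) and in 15 of 332 among those called higher (4.52%).

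Irf9, the DNA-binding subunit of the factor that interferon activates, measured 8.31 to 9.89 CPM (median 9.02) with HiFi-RfxCas13d and 10.5 to 14.7 CPM (median 13.6) with DiCas7-11. The groups did not overlap, and DiCas7-11 was 1.42-fold higher (log2 difference -0.50 ± 0.083, adjusted p = 8.38e-04). Usp18, the protease that removes ISG15, measured 1.47 to 2.87 CPM (median 2.53) against 2.54 to 5.91 CPM (median 3.91), with 1.72-fold more with DiCas7-11 (adjusted p = 0.013). Ifi27 measured 73.6 to 97.0 CPM (median 85.0) against 90.5 to 116 CPM (median 104; -0.27 ± 0.06, adjusted p = 0.0086). These ranges overlapped, as they did for all called members of the list but Irf9 and Ifi35.

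Bst2, or tetherin, measured 15.9 to 19.4 CPM (median 17.4) with HiFi-RfxCas13d and 18.2 to 23.4 CPM (median 22.2) with DiCas7-11 (adjusted p = 0.0089). The sensor Ddx58 measured 15.1 to 19.5 CPM (median 15.4) and 18.3 to 21.1 CPM (median 19.6; adjusted p = 0.0094). For these 2 genes the log2 differences were -0.29 ± 0.064 and -0.28 ± 0.061. Of the 8 calls 6 stood in every fit without 1 sample. Irf7 lost its call without DiCas7-11 mATXN2 1 or 2, HiFi-RfxCas13d NTG 2 or any HiFi-RfxCas13d mATXN2 sample, and Oas1a without DiCas7-11 NTG 1, DiCas7-11 mATXN2 2 or 3, HiFi-RfxCas13d NTG 2 or 3, or HiFi-RfxCas13d mATXN2 1 or 3.

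In all 8 of these genes, the mean of the untransfected samples lay below those of both effectors. Irf9 was at 4.29 to 4.61 CPM, Ifi27 at 23.5 to 26.4 CPM and Oas1a at 0.318 to 0.717 CPM in untransfected cells, against medians of 3.81 CPM for Oas1a with HiFi-RfxCas13d and 6.74 CPM with DiCas7-11. In bulk RNA, fewer responding cells and less RNA per cell cannot be told apart. By arm, 8 members of the whole list were called lower in the mATXN2 arm and none in the NTG arm, with list medians of -0.21 and -0.11. Ddx58 was not among them (edgeR adjusted p = 0.13 in the mATXN2 arm). No member was called in the test of the difference between arms, so the arms were not shown to differ. The sensor Ifih1 and the effectors Mx1, Ifit1 and Isg15 were not called, with log2 differences of 0.20, 0.14, 0.12 and -0.08. Of 17 NF-kB and inflammatory genes tested, Nfkb2, the p100 precursor, was called (-0.24 ± 0.066, adjusted p = 0.037), and it lost the call in 8 of 12 fits without 1 sample. This share, 5.88%, was near the 5.49% of all genes tested.

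Of 25 tested genes of the ATF4 list, which stands for the integrated stress response, 14 rose with HiFi-RfxCas13d and none fell, where 3.25% of all genes tested were called higher. In this list 23 had a positive log2 difference, with a median of 0.11. Of the 14 calls 8 stood in every fit without 1 sample. Without HiFi-RfxCas13d mATXN2 1 the number called was 9, and without DiCas7-11 NTG 2 it was 13. Promoters of several called members hold TGATGNAA, the core of the C/EBP-ATF response element that ATF4 binds with a partner. They are printed for 5 targets, on the strand of the gene, with the match (on either strand) in capitals.
Asns (chr6:7693214-7693243, minus strand): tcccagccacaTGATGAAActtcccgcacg
Slc7a11 (chr3:50443661-50443690, minus strand): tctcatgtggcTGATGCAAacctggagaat
Nupr1 (chr7:126625562-126625591, minus strand): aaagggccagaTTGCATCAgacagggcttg
Chac1 (chr2:119351038-119351067, plus strand): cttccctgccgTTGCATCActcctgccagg
Trib3 (chr2:152344028-152344057, minus strand): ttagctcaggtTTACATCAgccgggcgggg
The letters were found in 3.97% of all promoter windows and in promoters of 291 of the 10531 tested genes that had one (2.76%). Among genes called higher the number was 29 of 332, among genes called lower 4 of 243, and among called members of the ATF4 and tRNA synthetase lists 9 of 17. These are counts of letters, and binding was not measured.

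Asns, asparagine synthetase, measured 664 to 690 CPM (median 677) with HiFi-RfxCas13d and 576 to 626 CPM (median 603) with DiCas7-11. The groups did not overlap, and the log2 difference was 0.17 ± 0.022 (adjusted p = 4.97e-05). Nupr1, a stress-induced chromatin protein, had the largest rise of the list, with 17.3 to 19.4 CPM (median 18.1) against 11.8 to 15.7 CPM (median 13.3; 0.41 ± 0.065, adjusted p = 6.09e-04). Psat1 and Phgdh, enzymes of serine synthesis, differed by 0.14 ± 0.023 and 0.12 ± 0.025.

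Trib3, a pseudokinase that feeds back on ATF4, measured 72.2 to 78.4 CPM (median 75.7) with HiFi-RfxCas13d and 58.0 to 69.8 CPM (median 65.8) with DiCas7-11 (0.21 ± 0.037, adjusted p = 0.0016). Slc7a11, the cystine-glutamate exchanger, measured 38.6 to 46.6 CPM (median 43.4) and 33.9 to 40.9 CPM (median 36.2; 0.24 ± 0.044, adjusted p = 0.0023). Cth, which makes cysteine, differed by 0.28 ± 0.054. Atf4 itself was 1.06-fold higher (0.082 ± 0.02, adjusted p = 0.018), and this call was lost without HiFi-RfxCas13d mATXN2 1. Chac1 and the secreted stress marker Gdf15 were called (0.19 and 0.27). Chac1 lost the call without DiCas7-11 mATXN2 3 or HiFi-RfxCas13d mATXN2 3, and Gdf15 without DiCas7-11 NTG 3, DiCas7-11 mATXN2 3, HiFi-RfxCas13d NTG 2 or HiFi-RfxCas13d mATXN2 1. Shmt2, Pck2 and Slc7a5 lost theirs in 5, 7 and 9 of the 12 fits.

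The position against untransfected cells was unlike that of the interferon genes. The untransfected mean lay above both effectors for 9 of the 14 genes, between them for 4 and below both for 1, Slc7a11. Asns, at 723 to 730 CPM in untransfected cells, was therefore nearer to that level with HiFi-RfxCas13d, whereas Nupr1, at 11.9 to 15.8 CPM, was nearer with DiCas7-11. By arm, 2 members were called higher in the NTG arm and 7 in the mATXN2 arm, with list medians of 0.092 and 0.11.

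**Figure D3:**
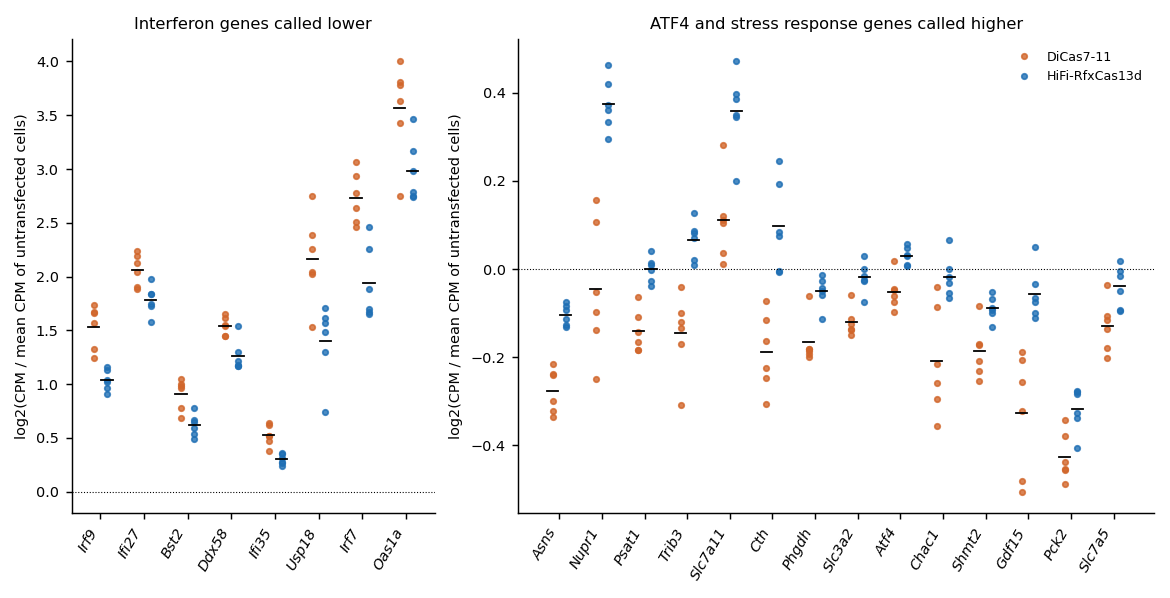
Level of the 8 interferon genes called lower (left) and the 14 stress response genes called higher (right) with HiFi-RfxCas13d, as log2 of the CPM of each sample over the mean CPM of untransfected cells (dotted line at 0). Orange, 6 DiCas7-11 samples; blue, 6 HiFi-RfxCas13d samples; black line, mean on this scale. All means on the left lie above 0 and those on the right lie on both sides of it; the 2 panels have different y axes.

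Of 20 cytosolic aminoacyl-tRNA synthetases 7 rose and none fell (median 0.054, against 3.25% of all genes called higher). Sars, the seryl-tRNA synthetase, measured 406 to 435 CPM (median 417) with HiFi-RfxCas13d and 365 to 393 CPM (median 379) with DiCas7-11 (0.14 ± 0.019, adjusted p = 9.83e-05), and Nars and Gars differed by 0.13 ± 0.023 and 0.093 ± 0.019. The number was 4 without HiFi-RfxCas13d mATXN2 3, DiCas7-11 mATXN2 2 or DiCas7-11 mATXN2 3. Of 21 genes of the ER unfolded protein response 18 were not called and 3 rose: Herpud1, of ER-associated degradation, by 0.20 ± 0.034 (adjusted p = 0.0014), the chaperone Dnajb11 by 0.13 ± 0.023 and calnexin (Canx) by 0.096 ± 0.02. Without DiCas7-11 NTG 2 the number was 5. Of 28 cytosolic and mitochondrial chaperones 26 were not called, and Hspb8 (0.11 ± 0.023) and Hspa9 rose. The shares called were 14.3% for the unfolded protein response and 7.14% for the chaperones, against 5.49% of all genes tested. Hspa9 (adjusted p = 0.049) kept its call only without DiCas7-11 NTG 2, when 6 chaperones were called.

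Of 81 cytosolic ribosomal protein genes 9 rose (11.1%) and none fell, where 3.25% of all genes tested were called higher, but the median was 0.0083. Rpl27a measured 633 to 654 CPM (median 639) with HiFi-RfxCas13d and 552 to 593 CPM (median 562) with DiCas7-11 (0.18 ± 0.018, adjusted p = 4.86e-06), and Rps4x differed by 0.14 ± 0.018. For all 9 the untransfected mean lay above both effectors. Reads of these genes can be shared with processed pseudogenes, so their counts are uncertain to that extent. The number was 4 without HiFi-RfxCas13d mATXN2 3 and 5 without HiFi-RfxCas13d NTG 2, DiCas7-11 mATXN2 2 or DiCas7-11 mATXN2 3. None of 78 mitochondrial ribosomal protein genes and none of 35 proteasome subunits was called by edgeR. In these lists 9 and 3 genes had an unadjusted p under 0.05, and DESeq2 and limma-trend called 0. The first listed members, Mrpl1 and Psma1, were at 0.073 ± 0.046 and -0.0029 ± 0.023.

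Lysosomal and autophagy genes rose in 6 of 39 cases (15.4%) and fell in none, where 3.25% of all genes tested were called higher. Lamp2, a lysosomal membrane glycoprotein, measured 118 to 127 CPM (median 122) with HiFi-RfxCas13d and 101 to 114 CPM (median 107) with DiCas7-11, a log2 difference of 0.21 ± 0.027 (adjusted p = 6.33e-05). The autophagy receptor Sqstm1, also on the NRF2 list, differed by 0.13 ± 0.024, and the proton pump subunit Atp6v1a by 0.13 ± 0.023. Of 24 genes listed for cholesterol synthesis and its regulator SREBP2, 3 rose (12.5% called, against 5.49% of all genes tested). They were Cyp51 (lanosterol demethylase, 0.14 ± 0.02), Insig1 (0.13 ± 0.023) and Sc5d (0.14 ± 0.029). A positive difference was seen in 21 of the 24. Without DiCas7-11 NTG 3 the number called was 5.

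Of 23 NRF2 genes 3 rose, but only Sqstm1 held in every fit without 1 sample, while Taldo1 lost its call in 8 fits and Hmox1, heme oxygenase 1, in 9. Mdm2, the ubiquitin ligase for p53, was the 1 gene called of 19 in the p53 pathway (0.14 ± 0.025, adjusted p = 0.0022). In the p53 and cell cycle lists the shares called, 5.26% to 7.50%, were near the 5.49% of all genes tested. Cyclin D1 (Ccnd1, 0.13 ± 0.021), the replicative helicase subunit Mcm4 (0.12 ± 0.023) and the primase Prim1 (0.11 ± 0.027) rose among 40 replication genes, and Ect2 (0.11 ± 0.024) and Nusap1 (0.12 ± 0.033) among 37 mitotic genes. Without DiCas7-11 NTG 1 or 2, 4 replication genes were called higher and 1 lower. Prim1 lost its call without DiCas7-11 mATXN2 2 or HiFi-RfxCas13d mATXN2 2, and Nusap1 in 8 fits.

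Map1b, a microtubule-associated protein of growing axons, measured 2577 to 3048 CPM (median 2850) with HiFi-RfxCas13d and 2224 to 2675 CPM (median 2458) with DiCas7-11, overlapping ranges with a difference of 0.21 ± 0.031 (adjusted p = 2.97e-04). Dpysl3 (0.075 ± 0.017) and Tubb3 (0.095 ± 0.022) were the other 2 called of 27 cytoskeletal genes, and the counts were 7 higher and 2 lower without DiCas7-11 NTG 2 and 7 and 1 without DiCas7-11 NTG 1. With the GC correction 8 were called higher, and in the fit of all 24 samples 7. Of 33 synaptic and secretory genes 4 rose and 1 fell. The shares called were 11.1% of the cytoskeletal and 15.15% of the synaptic list, against 5.49% of all genes tested. Cplx2, a regulator of vesicle fusion, measured 220 to 234 CPM (median 223) and 193 to 205 CPM (median 198; 0.19 ± 0.024, adjusted p = 5.35e-05). Syt4 rose by 0.33 ± 0.055, and the presynaptic scaffold Bsn fell by 0.37 on the log2 scale (SE 0.083, adjusted p = 0.012).

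**Figure D4:**
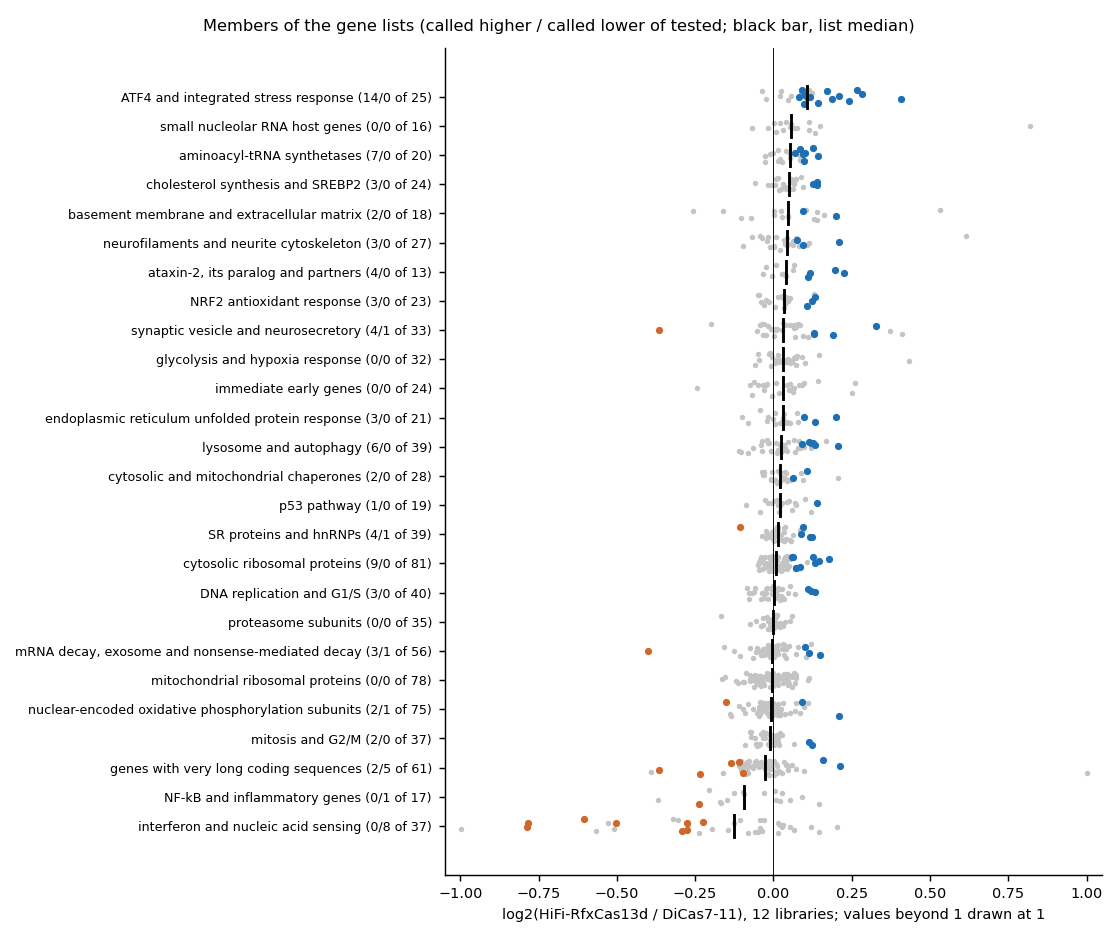
Log2 difference between HiFi-RfxCas13d and DiCas7-11 for every tested member of 26 gene lists, ordered by the list median (black bar). The list of replication-dependent histones is not drawn. Blue, called higher; orange, called lower; grey, not called; the numbers after each name are called higher and lower of tested. The interferon list has the lowest median (-0.13, 8 lower) and the ATF4 list the highest (0.11, 14 higher).

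Ataxin-2 binds poly(A)-binding protein and resides in stress granules. Of 13 tested genes for ataxin-2, its paralog and its partners, 9 were not called and 4 rose, namely Pabpc4, G3bp2, Pabpc1 and Lsm12 (median of the list 0.039). Over all genes tested 3.25% were called higher. Pabpc4, a cytoplasmic poly(A)-binding protein, measured 194 to 202 CPM (median 199) with HiFi-RfxCas13d and 168 to 175 CPM (median 169) with DiCas7-11 (0.22 ± 0.021, adjusted p = 9.15e-07). It was called in both arms, by 0.20 in the NTG arm and 0.24 in the mATXN2 arm. G3bp2, a stress granule scaffold, measured 281 to 306 CPM (median 287) against 237 to 275 CPM (median 249; 0.19 ± 0.029, adjusted p = 2.74e-04), while its paralog G3bp1 was not called (0.0067 ± 0.019). Lsm12 lost its call in 8 of 12 fits without 1 sample. Tardbp, which encodes TDP-43, was at 0.066 ± 0.02 (adjusted p = 0.061).

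Of 39 SR proteins and hnRNPs 4 rose and 1 fell, 12.8% called against 5.49% of all genes tested. Hnrnpr was at 0.12 ± 0.021, Hnrnph1 at 0.089 ± 0.021 and Ptbp2 at 0.12 ± 0.029. The count was 3 without HiFi-RfxCas13d NTG 3, HiFi-RfxCas13d mATXN2 1 or 2, or DiCas7-11 mATXN2 1 or 2, and 8 without DiCas7-11 NTG 2. Of 56 genes of mRNA decay 7.14% were called, near the 5.49% of all genes tested. Exosc6 fell and 3 rose, among them the nuclear exonuclease Xrn2 (0.11 ± 0.023) and the ribosome rescue factor Hbs1l (0.10 ± 0.024). Hbs1l lost its call without DiCas7-11 mATXN2 1, when the list held 2 calls. Of 75 nuclear-encoded subunits of oxidative phosphorylation 3 were called, 4.0% against 5.49% of all genes tested. Sdhc of complex II rose, with 147 to 157 CPM (median 154) with HiFi-RfxCas13d and 126 to 135 CPM (median 133) with DiCas7-11 (0.21 ± 0.023, adjusted p = 8.38e-06). Ndufa9 rose by 0.091, a call lost in 5 fits, and Cox8a fell by 0.15. The counts were 4 higher and 1 lower without DiCas7-11 NTG 1 and 3 and 2 without DiCas7-11 NTG 2, and 4 and 4 in the fit of all 24 samples.

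Of 61 genes with very long coding sequences 2 rose and 5 fell, where 3.25% of all genes tested were called higher and 2.24% lower. Syne1, a large protein of the nuclear envelope, differed by 0.21 ± 0.045. Rnf213, a giant ubiquitin ligase induced by interferon, measured -0.24 ± 0.04 (adjusted p = 0.0012). The falls numbered 2 without HiFi-RfxCas13d NTG 2, HiFi-RfxCas13d mATXN2 2 or 3, DiCas7-11 NTG 3 or DiCas7-11 mATXN2 1, and 3 without DiCas7-11 mATXN2 2 or 3. The basement membrane genes Sparc (0.20 ± 0.029) and Col4a1 (0.094 ± 0.021) rose among 18 tested. No glycolysis or hypoxia gene of 32, immediate early gene of 24 or small nucleolar RNA host gene of 16 was called by edgeR, with 7, 4 and 3 at an unadjusted p under 0.05. Without DiCas7-11 NTG 1, 5 glycolysis genes were called higher, and without other samples at most 1 in each list. DESeq2 called 2, 0 and 0 of them, and edgeR in the fit of all 24 samples 2, 1 and 1. Hif1a was at 0.071 ± 0.024, Fos at 0.061 ± 0.12 and Gas5 at 0.0071 ± 0.026. Of 31 replication-dependent histone genes 3 were called (H2ac12, H2ac18 and H3c14), all with a mean under 10 counts and with near-identical copies between which reads cannot be assigned with certainty, so no fold is given. DESeq2 called 0 of them.

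Whether the effector difference depended on the arm was tested for every gene. The interaction called 1 gene (0.00743% of those tested), with 820 at an unadjusted p under 0.05, and DESeq2 called 3. The gene was Idi1-ps1, a pseudogene of the isoprenoid enzyme Idi1. It measured 53.4, 56.9 and 53.4 CPM with HiFi-RfxCas13d and 56.8, 68.5 and 59.1 CPM with DiCas7-11 in the NTG arm. In the mATXN2 arm it measured 53.1, 61.2 and 60.2 CPM with HiFi-RfxCas13d and 41.6, 41.7 and 44.4 CPM with DiCas7-11. The log2 difference was -0.17 in the NTG arm and 0.46 in the mATXN2 arm, a change of 0.63 ± 0.092 (adjusted p = 0.017). Its parent Idi1 went the opposite way, with 0.18 and -0.13, and was not called (adjusted p = 0.19). Reads of a gene and its pseudogene can be exchanged by the quantification, so both counts are uncertain. The call was lost without HiFi-RfxCas13d NTG 1 or 3, HiFi-RfxCas13d mATXN2 2 or 3, or DiCas7-11 mATXN2 1 or 2 (highest adjusted p = 0.11), and in the fit of all 24 samples.

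Base composition and length moved with the calls. The median GC content of the transcripts was 47.7% for genes called higher, 52.2% for genes called lower and 50.7% for all genes tested, and the median coding length was 1326, 2126 and 1413 bases. The slope of a sample's log2 level on GC content lay between -0.046 and 0.010 per 10 points with HiFi-RfxCas13d and between -0.067 and 0.051 with DiCas7-11 (exact permutation p = 0.29), and all 3 mATXN2 samples of DiCas7-11 were at or above 0.028. In the same permutation test, the slope on transcript length gave p = 0.975 and the total count p = 0.42. The TMM factors lay between 0.9902 and 0.9999 with HiFi-RfxCas13d and between 0.9964 and 1.009 with DiCas7-11 (exact permutation p = 0.03). After a lowess correction for GC content 495 genes were called higher and 391 lower, and 696 of the 739 were called in the same direction. With a correction for coding length the counts were 502 and 248, and 667 were shared. After the GC correction the interferon list held 9 calls, all lower, and the ATF4 list 16, all higher. Of the other lists, the count moved by over 1.5 times for the neurite cytoskeleton (from 3 to 8), oxidative phosphorylation (from 3 to 5), glycolysis and hypoxia (from 0 to 2) and immediate early genes (from 0 to 1).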

How the data were processed

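Per the labels, RNA of Neuro2A cells was made into stranded mRNA libraries (Kapa) and sequenced as single reads of 101 cycles. The authors quantified transcripts with Salmon 1.5.2 and brought them to gene level in R 4.2.2 by tximport (lengthScaledTPM option), and deposited the resulting expected counts without scaling to library size. The labels name GRCm39. Column names were mapped to labels through effector, arm and number.

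Expected counts were rounded and analysed with edgeR 4.0.16 (R 4.3.3). A gene was kept if 3 or more of the 12 libraries reached 0.5 CPM. After TMM scaling, arm and effector were terms of the quasi-likelihood fit (9 residual degrees of freedom). A group-means model gave the contrasts within each arm and the interaction. P-values were adjusted by Benjamini-Hochberg within each comparison, at 0.05. Log2 differences are HiFi-RfxCas13d minus DiCas7-11, ± SE. Levels in untransfected cells came from 15 libraries scaled together. The untransfected samples entered no test other than the alternative fit of all 24 samples. The 12 samples are separate by their labels; where nothing says they came from separate cultures, p-values measure the spread between samples only. Single values were compared by exact permutation within arms (400 arrangements, smallest p 0.005).

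The members, gene lists and the rule for named genes were chosen with earlier results of these data known. The rule took Atxn2; the 10 largest rises and falls among called genes whose mean reached 50 counts and whose samples did not overlap, without predicted or unnamed genes (28 of the 739 calls); up to 3 called members of each list by adjusted p, or the first member where none was called; and the called interaction genes. Further genes in the text are list members, named after their values were seen. Lists were described by counts and medians, with no set test. Mitochondrial DNA-encoded genes were not analysed here. GC content and lengths came from GENCODE M21 (GRCm38) by Entrez identifier, for 89.6% of tested genes (coding length, 88.5%), and promoters from RefSeq (GRCm38.p6), leaving out those on chromosome 18, for 10531 of the tested genes.

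The depth of 13607843 to 19857305 counts and the spread between replicates limit precision. On simulated counts for the effector difference over 13464 genes, 100 of 100 genes with a log2 change of 1, 84 of 100 with a change of 0.3 and 6 of 13264 unchanged genes were called. Alternatives were DESeq2 (1.42.0; its size factors and its test), upper-quartile scaling, other filters, limma-trend (3.58.1), all 24 samples, a replicate block, no arm term, within-arm fits, corrections for GC content and length, and leaving out each sample.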

Additional observations from a re-analysis of the deposited data

Results flagged for a closer look

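The effector difference of Idi1-ps1 changed between the arms in the test of that change, by 0.63 on the log2 scale (adjusted p = 0.017, edgeR), and this pseudogene shares sequence with Idi1. A further 5 of 164 sets of 6 samples, tested over the named genes, held a sample whose gap to its neighbour as a share of the range exceeded Dixon's 95% critical value, where chance gives about 1 set in 20. With HiFi-RfxCas13d, Rpl27a was at 654 CPM in NTG 3 with its neighbour at 640.0, Ndufa9 was at 151 CPM in NTG 1 with its neighbour at 158, and H2ac12 was at 0.324 CPM in mATXN2 1, where the next sample was at 0.061. With DiCas7-11, NTG 2 held the other 2 values, Sdhc at 126 CPM with its neighbour at 132 and Hnrnph1 at 828 CPM with its neighbour at 770.0.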

How the results depend on the processing

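The number of genes called for the effector difference was 579 (no arm term) to 982 (no filter) under the 15 alternatives that kept all samples or the mATXN2 arm, and 16 from the NTG arm alone. It was 451 to 921 when 1 sample was left out. In the NTG arm, 45 calls became 204 with no filter, 73 with DESeq2, 98 with all 24 samples, 68 with either length correction, 77 with the GC correction and 16 from its own 6 samples (20 to 165 without 1 sample). In the mATXN2 arm, 387 became 703 with no filter, 621 with all 24 samples and 754 from its own 6 samples (139 to 609 without 1 sample). The interaction gave 63 with no filter, 3 with DESeq2 and 0 with all 24 samples (0 to 2 without 1 sample). The cause of these shifts was not tested. Samples share only a replicate number: correlations of same-numbered samples after removal of group means lay between -0.105 and 0.065. A replicate block gave 831 calls for the effector difference and 82 in the NTG arm, and with the GC correction 964 and 113. The block with the GC correction, and fits of an arm's own samples as alternatives for the contrasts within arms, were chosen after seeing the data.

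Of 2279 pairs of a named gene and an alternative, 2107 kept direction and side of the threshold, 148 lost the call, 7 gained one and 17 changed sign, all of the last in genes that were not called. Atxn2 was at 0.0065 with the coding length correction, 2.10e-04 with the GC correction and 0.010 from NTG samples alone (-0.017 to 0.011 without 1 sample). Idi1-ps1 was at -0.17 from NTG samples alone. From mATXN2 samples alone, Fos was at -0.031, Gas5 at -0.020 (-0.0084 to 0.022 without 1 sample) and Psma1 at 0.026 (-0.013 to 0.0083).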

Other observations

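The genes named here and in the next paragraph were picked after their values were seen, from no list, and stand for no group. Stt3a, the catalytic subunit of an oligosaccharyltransferase, was at 287 CPM with HiFi-RfxCas13d and 240.2 CPM with DiCas7-11 (0.26 ± 0.023 on the log2 scale, edgeR adjusted p = 6.41e-07). Sec63, a partner of the translocon, was at 278 and 231 CPM (0.27 ± 0.025, adjusted p = 9.37e-07). The nuclear import receptor Kpnb1 was at 1626 and 1416 CPM (0.20 ± 0.016, adjusted p = 1.58e-07). For Kpnb1 the untransfected mean of 1414 CPM lay with DiCas7-11, and for Stt3a and Sec63, at 275 and 295 CPM, nearer to HiFi-RfxCas13d. None of these 3 calls was lost when 1 sample was left out.

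Lgals3bp, which interferon can induce, was at 52.2 and 65.6 CPM (-0.33 ± 0.073, adjusted p = 0.0097), Parp9 at 15.6 and 18.8 CPM (-0.27 ± 0.061, adjusted p = 0.011) and the RNA helicase Mov10 at 36.5 and 42.6 CPM (-0.22 ± 0.043, adjusted p = 0.0033). The membrane protein Ifitm3 was at 7.37 and 9.85 CPM, against 1.10 CPM in untransfected cells, and its call (adjusted p = 0.015) was lost in 1 fit that left out a sample.

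Against untransfected cells, the 438 genes called higher with HiFi-RfxCas13d held 198 whose untransfected mean lay between the 2 effectors, 156 where it lay beyond HiFi-RfxCas13d and 84 where it lay beyond DiCas7-11. For the 301 genes called lower the numbers were 125, 118 and 58.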
